A study of Mus musculus with 6 samples.

Results

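Serpins are a superfamily of serine protease inhibitors and related carriers, and this account covers the mouse genes whose symbols start with Serpin, apart from Serpinc1, Serpind1, Serpinf2 and Serping1, which act in coagulation, fibrinolysis and complement. They were taken from the probe sets that the platform annotation gives exactly 1 gene symbol. The rule found 36 genes on 52 probe sets, out of 18193 genes with such a probe set. By clade letter, 14 belonged to clade A, 18 to clade B, 1 to clade F, 1 to clade H and 2 to clade I. Several Serpina3 genes were not analysed here.

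Liver RNA of C57BL/6 mice was read on Affymetrix arrays, 1 array per sample. One group of mice received Nfkbiz by vein in AAV8, a viral vector that transduces mouse liver; Nfkbiz is the gene of the nuclear IκB protein IκBζ (3 arrays). The control group received luciferase in the same vector (3 arrays). In both groups a CDAHFD diet, choline-deficient, amino acid-defined and high in fat, was started 4 weeks after the vector and kept for 4 weeks, and the animals were perfused with PBS, so no group was without vector or diet. Age, sex and the promoter driving each transgene are not stated by the labels. Values below are linear MAS5 signal intensities, and every difference is the AAV8-Nfkbiz log2 mean minus the AAV8-luciferase log2 mean.

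An inhibitory serpin presents a flexible reactive loop as bait, and cleavage of the loop traps the protease in a covalent complex that is then cleared. Clade A serpins are mostly plasma proteins secreted by hepatocytes, whereas clade B serpins lack a classical signal peptide and guard the cytosol of leukocytes and epithelia. Some members inhibit nothing and carry hormones or fold collagen instead. In the mouse the clade A genes lie mostly on chromosome 12 and the clade B genes on chromosomes 13 and 1 (RefSeq, GRCm38.p6), and many are recent duplicates of each other.

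Arrays had median intensities between 78.2 and 95.2. To check the labels, 1 of 3 Nfkbiz probe sets read 3501 ± 1307 in AAV8-Nfkbiz livers and 210.2 ± 26.7 in AAV8-luciferase livers (SD, n = 3 each; log2 difference 3.98 ± 0.27 SE, limma adjusted p = 0.0009 over the probe sets), while the other two did not pass (0.30 ± 0.19 and -0.89 ± 0.54 SE). The hepatocyte marker Alb averaged 43844 ± 4849 in AAV8-Nfkbiz livers and 42878 ± 2568 in AAV8-luciferase livers (SD, n = 3 each), and of 9 tested hepatocyte markers 1, Tat, fell (-1.17 ± 0.16 SE, limma adjusted p = 0.0218). AAV8-luciferase array 3 lay away from the rest on principal component 2, at -45.1 against 3.11 to 21.1 for the other 5 arrays.

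No serpin outside coagulation passed limma's test over all genes. Of the 36 genes, 19 had a probe set above the intensity filter of 47.4 and were tested, and 0 of them had an adjusted p below 0.05, where 0.225% of all 13312 tested genes did. The smallest adjusted p was 0.125 (limma), for Serpinb1a. At an unadjusted p below 0.05 there were 6 of 19 (31.6%), against 12% of all tested genes. In 5 of the 19 (26.3%) every AAV8-Nfkbiz array read above every AAV8-luciferase array, against 8% of all tested genes, and in 0 of the 19 every AAV8-Nfkbiz array read below, against 10%. The count of 5 was 3 after median centring and 8 without AAV8-Nfkbiz array 3, where fewer arrays have to be separated. The differences were positive for 15 members and negative for 4, where 47.8% were positive over all tested genes. The members had a median of 0.21 against -0.02 over all tested genes. In all 19 the geometric mean of each group by itself lay above the filter. Among the 24 probe sets of these genes that passed the filter, 0 had an adjusted p below 0.05, against 0.0703% of 27022 probe sets. RNA from whole liver does not tell fewer cells of a type from less RNA per cell, and with 3 arrays against 3 the precision is limited by their number.

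**Figure D1:**
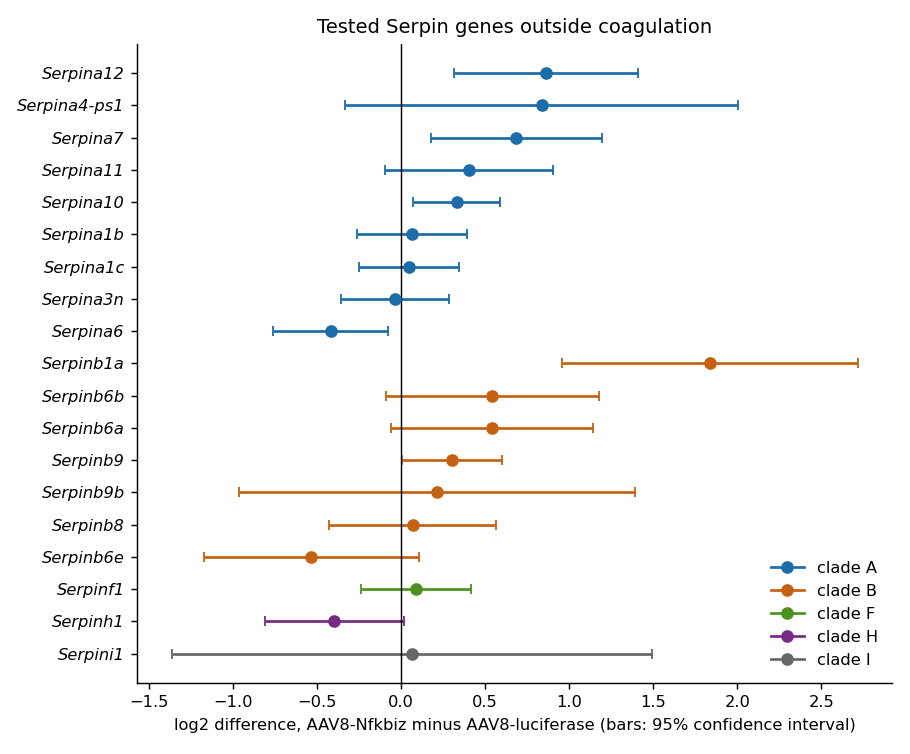
Log2 difference, AAV8-Nfkbiz minus AAV8-luciferase (x axis), of the 19 tested Serpin genes (y axis), grouped by clade, with limma's 95% confidence intervals as bars. Serpinb1a lies farthest to the right at 1.84, and Serpina6 is the 1 gene whose interval lies wholly below 0.

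Among the 19 tested members the largest difference was that of Serpinb1a, the mouse counterpart of human SERPINB1, a cytosolic inhibitor of the neutrophil proteases elastase, cathepsin G and proteinase 3. Its brighter probe set read 229, 307 and 181 on the AAV8-Nfkbiz arrays and 38.2, 108 and 67.7 on the AAV8-luciferase arrays. The lowest of the AAV8-Nfkbiz values was above the highest of the AAV8-luciferase values. The means were 239 ± 63.5 in AAV8-Nfkbiz livers and 71.2 ± 34.9 in AAV8-luciferase livers (SD, n = 3 each), a 3.58-fold difference of the geometric means (95% confidence interval 1.94 to 6.59). On the log2 scale this was 1.84 ± 0.40 (SE), with a limma adjusted p of 0.125 and an unadjusted limma p of 0.00087. Leaving out single arrays moved the difference between 1.45 and 2.2, and its adjusted p ran from 0.0985 to 0.406 over the 16 alternative settings that tested it. With the filter at the lowest 60% it was too dim to be tested. Its lowest AAV8-luciferase value, 38.2, was below the filter of 47.4, so the fold rests partly on control values near the filter.

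A second Serpinb1a probe set pointed the same way at lower intensity. It read 70.9, 64.1 and 64.1 in AAV8-Nfkbiz livers and 37.7, 14.8 and 41.0 in AAV8-luciferase livers, again without overlap. It was below the filter and enters only the fit without one, where its difference was 1.22 ± 0.60 (SE; limma adjusted p = 0.606). The suffix s_at of its name marks probe sets that can match several transcripts, and Serpinb1a has close duplicates.

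Markers of leukocytes, which carry clade B serpins, are given beside these values, and their part in the Serpinb1a difference was not tested. Of 10 neutrophil markers 6 were tested, 5 with a positive difference, 2 at an unadjusted p below 0.05 and 0 passing over all genes, and their summed intensity ran from 1366 to 2957 in AAV8-Nfkbiz livers and from 1122 to 1598 in AAV8-luciferase livers. Those 2, the calprotectin subunit genes S100a8 and S100a9, had differences of 0.85 ± 0.36 and 0.84 ± 0.35 (SE, limma adjusted p = 0.386 and 0.369). S100a8 averaged 922 ± 466 in AAV8-Nfkbiz livers and 496 ± 202 in AAV8-luciferase livers, and S100a9 averaged 572 ± 338 in AAV8-Nfkbiz livers and 291 ± 69.0 in AAV8-luciferase livers (SD, n = 3 each). AAV8-Nfkbiz array 1 gave the highest sum, with S100a8 at 1433 and S100a9 at 960. On AAV8-Nfkbiz array 3 S100a8 read 520, below the 723 of AAV8-luciferase array 1. The 1 negative difference was that of Csf3r (-0.48 ± 0.35 SE, limma adjusted p = 0.613), and Ngp was at 0.01 ± 0.32 (SE, limma adjusted p = 0.996). The neutrophil granule gene Mpo read 56.3 ± 17.99 in AAV8-Nfkbiz livers and 48.4 ± 22.5 in AAV8-luciferase livers (SD, n = 3 each), close to the filter, and Camp and Cxcr2 were below it. All 10 Kupffer cell and macrophage markers were tested, 9 with a positive difference, 7 at an unadjusted p below 0.05 and 0 passing, with sums from 46607 to 60990 in AAV8-Nfkbiz livers and from 33815 to 43486 in AAV8-luciferase livers. Of 11 T and NK cell markers 9 were tested, 6 with a positive difference and 1, Gzma, passing, with sums from 1090.1 to 1856 in AAV8-Nfkbiz livers and from 935 to 1049 in AAV8-luciferase livers. Cd4 was not tested. Of 7 B and plasma cell markers 6 were tested, 5 with a positive difference, 2 at an unadjusted p below 0.05 and 0 passing. Dendritic cell markers mostly went the other way, with 1 positive and 5 negative differences among 6 tested and 0 at an unadjusted p below 0.05. Over all tested genes 47.8% of the differences were positive and 12% had an unadjusted p below 0.05.

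**Figure D2:**
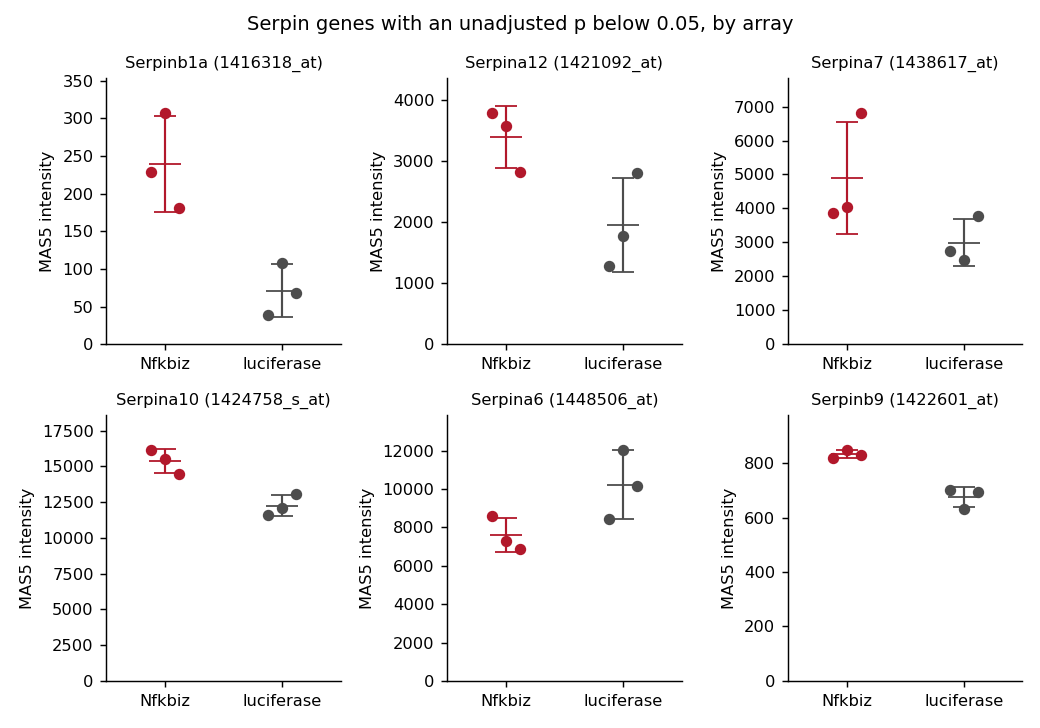
MAS5 intensity (y axis, linear, from 0) on each array for the 6 members with an unadjusted p below 0.05, AAV8-Nfkbiz (red) and AAV8-luciferase (grey), with the mean and SD of 3 arrays as bars. In every panel but Serpina6 the red points all lie above the grey ones.

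Serpinb9, the inhibitor of granzyme B that protects cytotoxic lymphocytes and their neighbours, also separated the groups. Its brighter probe set read 819.6, 849 and 831 in AAV8-Nfkbiz livers and 702, 633 and 693 in AAV8-luciferase livers. The AAV8-Nfkbiz arrays lay wholly above. The difference was 0.30 ± 0.13 (SE; 95% confidence interval 0.01 to 0.60; limma adjusted p = 0.404). Its other passing probe set had the opposite sign, at 239, 212.6 and 241 in AAV8-Nfkbiz livers and 274, 231.6 and 266 in AAV8-luciferase livers (-0.15 ± 0.19 SE, limma adjusted p = 0.81 over the probe sets). The protease it inhibits, Gzmb, had a difference of -0.18 ± 0.47 (SE, limma adjusted p = 0.905), whereas Gzma, another granzyme, rose (1.77 ± 0.28 SE, limma adjusted p = 0.0427).

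The B6 genes had differences of both signs, and none had an unadjusted p below 0.05. Serpinb6a, whose human counterpart SERPINB6 inhibits cathepsin G, read 3064, 2867 and 3343 in AAV8-Nfkbiz livers and 3299, 2225 and 1307 in AAV8-luciferase livers. The first AAV8-luciferase array lay inside the AAV8-Nfkbiz range (0.54 ± 0.27 SE, limma adjusted p = 0.461), and the difference was 0.86 without that array and 0.19 without the third AAV8-luciferase array. Serpinb6b read 714, 691 and 1177 in AAV8-Nfkbiz livers and 623, 379 and 801 in AAV8-luciferase livers, overlapping as well (0.54 ± 0.29 SE, limma adjusted p = 0.486). Without the second AAV8-luciferase array its difference was 0.24, and without the third AAV8-Nfkbiz array 0.29. Serpinb6e had a negative difference (-0.54 ± 0.29 SE, limma adjusted p = 0.496) on a probe set of the x_at kind, whose probes can match related sequences.

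Serpinb8, whose human counterpart inhibits furin, had small differences on both of its probe sets. On the one used for the gene it read 160.1, 166 and 188 in AAV8-Nfkbiz livers and 177, 147 and 166 in AAV8-luciferase livers, with a difference of 0.07 ± 0.22 (SE, limma adjusted p = 0.93) and a 95% confidence interval from -0.43 to 0.57. The other gave -0.15 ± 0.33 (SE, limma adjusted p = 0.905 over the probe sets). Serpinb9b read from 56.1 to 219 in AAV8-Nfkbiz livers and from 51.7 to 127 in AAV8-luciferase livers, a spread that allowed log2 differences between -0.96 and 1.39. Of the 18 clade B genes 7 were tested, 6 with a positive and 1 with a negative difference, where 47.8% were positive over all tested genes. The 11 others, among them the epithelial Serpinb5, Serpinb7 and Serpinb12, stayed below the filter. Over the 22 probe sets of all 17 untested members, every AAV8-Nfkbiz array read above every AAV8-luciferase array in 3, against 6.59% of the 6601 probe sets of untested genes, and below in 2, against 3.76%.

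**Figure D3:**
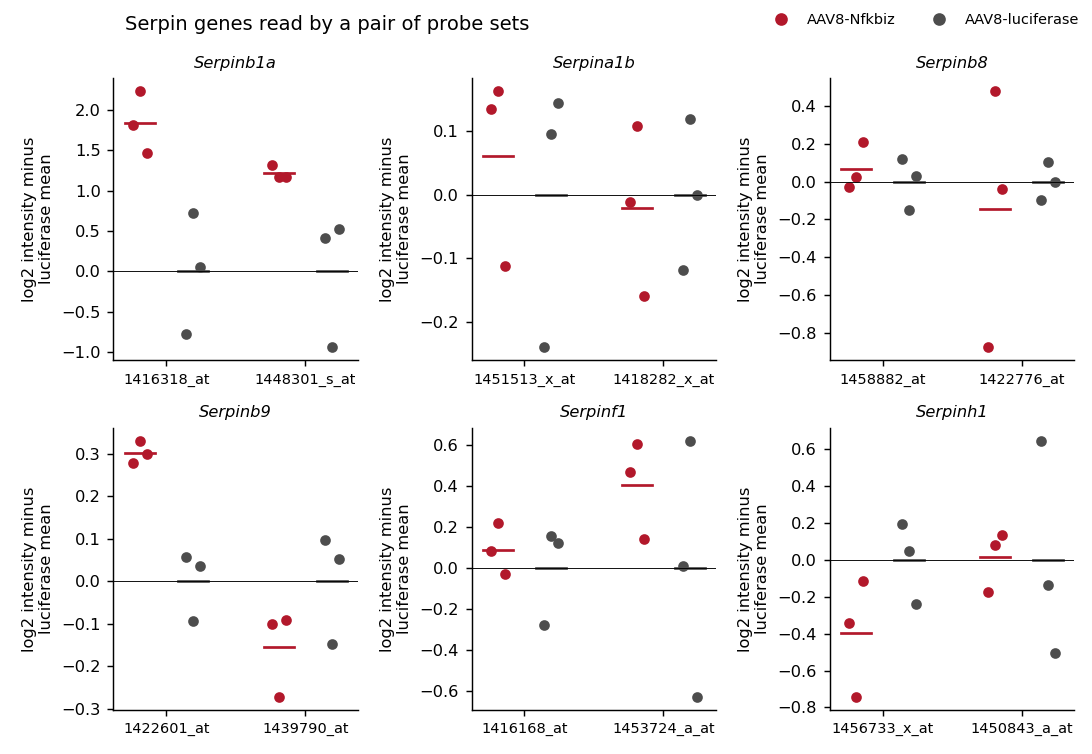
Log2 intensity minus the AAV8-luciferase mean of the same probe set (y axis) for 6 genes with a pair of probe sets (x axis), AAV8-Nfkbiz in red and AAV8-luciferase in grey, bars at group means. The Serpinb1a sets point the same way, the dimmer one being below the filter, whereas the sets of Serpina1b, Serpinb8, Serpinb9 and Serpinh1 differ in sign.

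Among secreted serpins, Serpina12 had the largest difference of those tested with an unadjusted p below 0.05. It encodes vaspin, an insulin-sensitizing adipokine that inhibits kallikrein 7. Its brighter probe set read 3786, 3576 and 2829 in AAV8-Nfkbiz livers and 1288, 1768 and 2807 in AAV8-luciferase livers. The groups were separated by a narrow step, with array 3 of each group on either side of it. The means were 3397 ± 503 in AAV8-Nfkbiz livers and 1954 ± 776 in AAV8-luciferase livers (SD, n = 3 each), 1.82-fold with a 95% confidence interval of 1.24 to 2.66 (log2 difference 0.86 ± 0.25 SE, limma adjusted p = 0.218). Leaving out AAV8-luciferase array 1 gave 0.60, and leaving out array 3 gave 1.16. Its second probe set was below the filter and read 62 or less on every array.

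The hormone carriers Serpina7 and Serpina6 had differences of opposite sign. Serpina7, thyroxine-binding globulin, read 3874, 4036 and 6807 in AAV8-Nfkbiz livers and 2747, 2470 and 3770.0 in AAV8-luciferase livers. The AAV8-Nfkbiz arrays lay above, array 3 the farthest (log2 difference 0.69 ± 0.23 SE, limma adjusted p = 0.279). Without the third AAV8-Nfkbiz array the difference was 0.42. Serpina6, corticosteroid-binding globulin, read 8585, 7307 and 6899 in AAV8-Nfkbiz livers and 8451, 12046 and 10160 in AAV8-luciferase livers. Only the first array of each group overlapped. The difference was -0.42 ± 0.15 (SE; 95% confidence interval -0.76 to -0.08; limma adjusted p = 0.326).

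Serpina10, the protein Z-dependent inhibitor of factor Xa, belongs here by the naming rule although it too acts on clotting. It read 16155, 15491 and 14498 in AAV8-Nfkbiz livers and 11600, 12070 and 13045 in AAV8-luciferase livers. The groups did not overlap, and the difference was 0.33 ± 0.12 (SE, 95% confidence interval 0.07 to 0.59, limma adjusted p = 0.306). Its only probe set is of the s_at kind, which can match several transcripts. Serpina11 read 2411, 2224 and 1276 in AAV8-Nfkbiz livers and 1275, 1415 and 1647 in AAV8-luciferase livers. AAV8-Nfkbiz array 3 lay among the AAV8-luciferase ones (0.40 ± 0.23 SE, limma adjusted p = 0.514). The difference was 0.69 without that array and 0.23 without AAV8-Nfkbiz array 1. The transcribed pseudogene Serpina4-ps1 read between 59.3 and 153 in AAV8-Nfkbiz livers and between 28.8 and 81.3 in AAV8-luciferase livers (0.84 ± 0.53 SE, limma adjusted p = 0.565).

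The tested alpha-1-antitrypsin genes and Serpina3n had differences near 0. Serpina1b and Serpina1c encode copies of alpha-1-antitrypsin, the main plasma inhibitor of neutrophil elastase. Serpina1c read 47018, 47758 and 38613 in AAV8-Nfkbiz livers and 39515, 45257 and 43985 in AAV8-luciferase livers, and Serpina1b read 47267, 48209 and 39845 in AAV8-Nfkbiz livers and 36485, 46030.3 and 47605 in AAV8-luciferase livers. The ranges overlapped throughout, with differences of 0.05 ± 0.13 and 0.06 ± 0.15 (SE, limma adjusted p = 0.92 and 0.901). The 95% confidence interval of Serpina1c ran from -0.25 to 0.35 and that of Serpina1b from -0.27 to 0.39, so log2 differences beyond 0.39 in size lie outside both. These bounds hold for the signal of these probe sets. They read near the array maxima, which ran from 52443 to 67210, and whether signal still follows RNA amount there was not tested. A second Serpina1b probe set gave -0.02 ± 0.13 (SE, limma adjusted p = 0.968 over the probe sets). The estimates of the first sets were slightly negative after quantile or loess normalization. The Serpina1b probe sets are of the x_at kind, so their probes may also match other copies. Probe sets annotated to several of these copies were not counted as members. That of Serpina1d and Serpina1a had a difference of 0.18 ± 0.16 and that of Serpina1e, Serpina1c and Serpina1b one of 0.34 ± 0.24 (SE, limma adjusted p = 0.737 and 0.645 over the probe sets).

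Serpina3n, an antichymotrypsin-like acute phase serpin that inhibits granzyme B and cathepsin G, read 9772, 9099.6 and 7612 in AAV8-Nfkbiz livers and 7848, 10255 and 9060.3 in AAV8-luciferase livers. Its difference was -0.04 ± 0.14 (SE; 95% confidence interval -0.36 to 0.29; limma adjusted p = 0.947). The other Serpina3 members, Serpina3a and Serpina3i, were below the filter. For comparison, 0 of 18 tested genes of an acute phase list that holds no serpin passed over all genes, with a median of 0.16 and 1 at an unadjusted p below 0.05.

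Promoter windows of 300 bases, from 250 bases before to 50 after the gene's start, were read from RefSeq (GRCm38.p6) for 4 members. Serpina12, Serpina7 and Serpinb9 are shown because their groups did not overlap, and Serpina3n as an acute phase serpin whose interval spans 0. Serpinb1a and Serpina10, whose groups did not overlap either, had no window. Capitals mark each match to TTNNGNAA, the core of the binding consensus of C/EBP factors, on either strand.
Serpina12, GRCm38.p6 chr12:104044394-104044693, minus strand: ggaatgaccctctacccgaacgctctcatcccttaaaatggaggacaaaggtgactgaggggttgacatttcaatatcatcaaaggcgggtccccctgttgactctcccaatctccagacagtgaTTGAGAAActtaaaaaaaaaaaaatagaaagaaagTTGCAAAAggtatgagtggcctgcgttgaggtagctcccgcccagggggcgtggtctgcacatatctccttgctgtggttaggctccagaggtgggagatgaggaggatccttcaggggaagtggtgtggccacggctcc
Serpina7, GRCm38.p6 chrX:139085187-139085486, minus strand: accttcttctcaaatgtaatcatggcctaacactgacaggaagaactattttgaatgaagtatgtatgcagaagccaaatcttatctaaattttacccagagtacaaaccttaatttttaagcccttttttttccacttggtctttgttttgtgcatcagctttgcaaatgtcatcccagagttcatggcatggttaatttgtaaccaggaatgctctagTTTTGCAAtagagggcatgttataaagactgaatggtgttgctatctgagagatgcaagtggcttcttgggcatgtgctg
Serpinb9, GRCm38.p6 chr13:33004291-33004590, plus strand: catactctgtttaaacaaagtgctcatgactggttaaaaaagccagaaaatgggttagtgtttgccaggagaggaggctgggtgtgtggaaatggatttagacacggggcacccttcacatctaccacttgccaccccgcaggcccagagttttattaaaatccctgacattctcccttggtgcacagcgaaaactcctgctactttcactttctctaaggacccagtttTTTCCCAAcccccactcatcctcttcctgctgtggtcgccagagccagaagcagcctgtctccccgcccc
Serpina3n, GRCm38.p6 chr12:104406458-104406757, plus strand: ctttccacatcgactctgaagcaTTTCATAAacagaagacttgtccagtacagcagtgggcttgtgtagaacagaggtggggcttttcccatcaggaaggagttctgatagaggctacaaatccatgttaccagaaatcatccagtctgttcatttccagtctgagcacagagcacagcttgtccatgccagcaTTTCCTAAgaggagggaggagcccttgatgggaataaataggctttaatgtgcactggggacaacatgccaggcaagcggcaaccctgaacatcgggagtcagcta
The core was found 2 times in the windows of Serpina12 and Serpina3n and 1 time in those of Serpina7 and Serpinb9. It occurs in 40.7% of all 32851 promoter windows, so these letters are common. Of the 15 tested members with a window, 11 had it in at least 1 of their windows, a count of genes and not of windows. The NF-κB consensus occurs in 8.46% of all windows and in 1 tested member, Serpinh1. TATAAA was found in 13.6% of all windows and in Serpina7, and the glucocorticoid response element in 0.475% of all windows and in Serpina3n, neither overlapping a marked match. The STAT motif TTCNNNGAA was in 8.3% of all windows and in Serpina11 and Serpinb6a. In all, 31 of the 36 genes had a window, and Serpina7 has 2 listed starts, of which the first is shown.

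Outside clades A and B, 3 serpins were tested and none had an unadjusted p below 0.05. Serpinf1, pigment epithelium-derived factor, a secreted non-inhibitory serpin known to limit angiogenesis, read 20423, 22438 and 18884 in AAV8-Nfkbiz livers and 15939, 21518 and 21003 in AAV8-luciferase livers (0.09 ± 0.15 SE, limma adjusted p = 0.853). The groups overlapped. Its other passing probe set read 11289, 12378 and 9002 in AAV8-Nfkbiz livers and 8225, 12528 and 5278 in AAV8-luciferase livers, again overlapping (0.40 ± 0.27 SE, limma adjusted p = 0.621 over the probe sets), and the difference on it was 0.09 without AAV8-luciferase array 3 and 0.71 without AAV8-luciferase array 2. Serpinh1, the collagen chaperone HSP47 of the endoplasmic reticulum, read 1045, 791 and 1225 in AAV8-Nfkbiz livers and 1516, 1367 and 1120.4 in AAV8-luciferase livers on the brighter probe set (-0.40 ± 0.19 SE, limma adjusted p = 0.432; -0.23 without AAV8-Nfkbiz array 2). That brighter probe set is of the x_at kind, whose probes can match related sequences. On the other Serpinh1 probe set the difference was 0.01 ± 0.26 (SE, limma adjusted p = 0.99 over the probe sets). Serpini1, neuroserpin, an inhibitor of tissue plasminogen activator, read 82.5, 75.5 and 32.6 in AAV8-Nfkbiz livers and 101.7, 23.2 and 75.5 in AAV8-luciferase livers (0.06 ± 0.64 SE, limma adjusted p = 0.981).

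Across arrays, several plasma serpins shared an order that crossed the groups, noticed after the values were seen. The third AAV8-Nfkbiz and the first AAV8-luciferase arrays were the lowest pair for 5 of the 19 members, Serpina1b, Serpina1c, Serpina3n, Serpina11 and Serpinf1. The same held for all 4 serpins left out by the rule and for 8 of 9 tested hepatocyte markers, whose summed intensity was 332093 on that AAV8-Nfkbiz array and 336590 on that AAV8-luciferase array, against 380493 to 398561 on the other 4. Serpina12, Serpina7 and Serpinb1a did not share this order. The 4 left-out serpins had differences between 0.03 for Serpind1 and 0.10 for Serping1, with 0 of 4 passing.

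**Figure D4:**
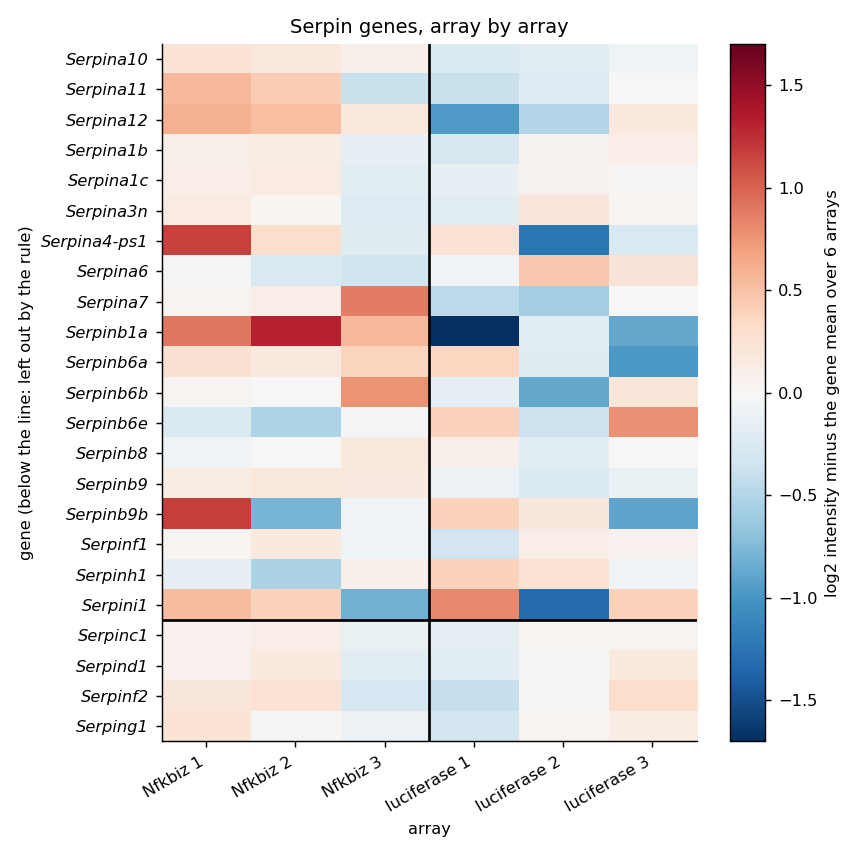
Log2 intensity minus the gene's mean over 6 arrays (colour) for the 19 tested members and, below the line, the 4 serpins left out by the rule (rows), with AAV8-Nfkbiz arrays left of AAV8-luciferase arrays (columns). Serpinb1a shows the strongest contrast, and the pale block of Serpina1b, Serpina1c, Serpina3n, Serpinf1 and the left-out serpins is lower on the third AAV8-Nfkbiz and the first AAV8-luciferase arrays.

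Genes that act with serpins were described through 7 companion lists. Of 21 tested proteases that serpins inhibit, 1 rose over all genes, Gzma, and 0 fell (median 0.07), with 3 higher and 1 lower at an unadjusted p below 0.05. Casp8 (0.38 ± 0.13), Casp1 (0.55 ± 0.20) and the plasma kallikrein gene Klkb1 (-0.33 ± 0.12) did not pass, with limma adjusted p-values from 0.277 to 0.329 (SE). Elane, the gene of the elastase that alpha-1-antitrypsin and Serpinb1a inhibit, had a difference of 0.39 ± 0.30 (SE, limma adjusted p = 0.647). Its AAV8-Nfkbiz arrays all read above its AAV8-luciferase arrays, by a narrow step of 111.17 against 111.08. Prtn3, the gene of proteinase 3, had a difference of 1.08 ± 0.52 with overlapping groups (SE, limma adjusted p = 0.445). The cathepsin G gene Ctsg was not tested. Of 18 other plasma protease inhibitors 0 passed and 1 had an unadjusted p below 0.05 (median 0.04), the coagulation inhibitor Tfpi having the smallest p (0.57 ± 0.22 SE, limma adjusted p = 0.332).

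Lists upstream and downstream of secretion had negative medians with 0 genes passing. An unadjusted p below 0.05 was found for 5 of 14 regulators and 6 of 19 quality control genes. It was also found for 2 of 6 receptors and 2 of 14 collagen partners. All of these were lower and 0 genes of these lists were higher. Over all tested genes the share was 12%, higher and lower genes together. Among 14 tested transcriptional regulators of hepatic serpins, 12 had negative differences (median -0.18), the smallest unadjusted p-values being those of the interleukin-1 receptor Il1r1 (-0.63 ± 0.15), Cebpb (-0.60 ± 0.16), Cebpd (-0.60 ± 0.17) and the interleukin-6 receptor Il6ra (-0.75 ± 0.22), with limma adjusted p-values from 0.178 to 0.219 (SE). Of 19 secretory quality control genes 14 were negative (median -0.19), led by Sel1l (-0.76 ± 0.15) and Syvn1 (-0.80 ± 0.18), subunits of the ubiquitin ligase complex that removes misfolded secretory proteins (SE, limma adjusted p = 0.0997 and 0.158). Of 6 clearance receptors 4 were negative (median -0.22), among them Lrp1, which takes up serpin-protease complexes (-0.66 ± 0.21 SE, limma adjusted p = 0.258). Of 14 collagen chaperoning partners of Serpinh1 12 were negative (median -0.21), with P3h1 at -0.51 ± 0.17 and Col1a1 at -0.56 ± 0.21 (SE, limma adjusted p = 0.284 and 0.333). Stellate cell and fibroblast markers, 8 of 9 negative with 3 at an unadjusted p below 0.05 and 0 passing, summed to between 16256 and 21949 in AAV8-Nfkbiz livers and between 16227 and 30767 in AAV8-luciferase livers, and their part in the Serpinh1 and collagen values was not tested.

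**Figure D5:**
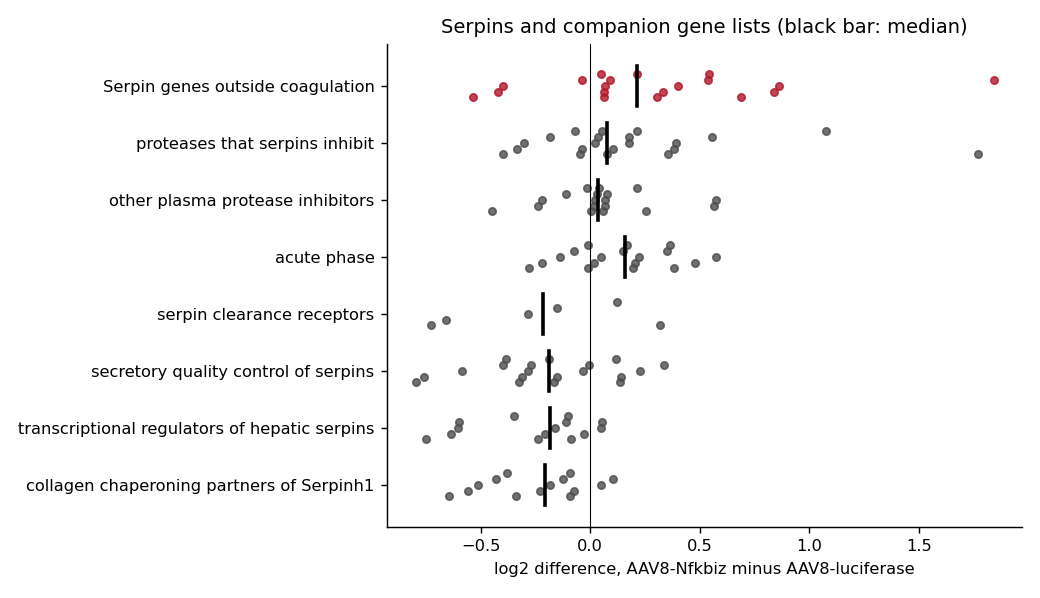
Log2 difference, AAV8-Nfkbiz minus AAV8-luciferase (x axis), of each tested member (points) of the Serpin family, in red, and of 7 companion lists, in grey, with medians as black bars. The Serpin median is 0.21 and those of the other lists lie between -0.22 and 0.16.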

How the data were processed

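Liver RNA, 100 ng per sample, was labelled with biotin and hybridised to 6 arrays. The authors deposited MAS5 signal intensities on a linear scale, per the submitters' processing notes (version and background settings not given in the sources used here); trimmed means between 495 and 497 on every array show scaling to one target, which hides a global shift. Of 45037 probe sets, 34945 had 1 symbol, 932 several and 9160 were unlisted. RefSeq (GRCm38.p6) changed 0 symbols.

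Intensities were log2-transformed without pseudocount. Each gene was represented by its brightest probe set, and the lowest 40% of probe sets were left out. limma 3.58.1 in R 4.3.3 (lmFit, eBayes with intensity trend) fitted 13312 genes and, separately, 27022 probe sets, with Benjamini-Hochberg adjusted p-values called below 0.05, after a test on simulated data. No detection calls were used. The labels name separate samples only, so the p-values cover only the spread among these arrays, which may be technical.

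The members, gene lists and tests were chosen with earlier results of these data known. Per-array values were given for 16 tested members: those with an unadjusted p below 0.05 and a fixed set. Other members are given by range or difference. List genes named are those past the threshold and up to 4 with the smallest p. Other genes were named after their values were seen. Figures used matplotlib 3.10.9.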

Additional observations from a re-analysis of the deposited data

How the results depend on the processing

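In 0 of 17 alternative settings did a tested serpin pass the threshold. The count at an unadjusted p below 0.05 was 6 and ran from 3 (without the second AAV8-luciferase array) to 8, and was 4 after median centring, without the intensity trend, and without the first or the second AAV8-Nfkbiz array. The lowest adjusted p of Serpina12 was 0.0592 and of Serpinb1a 0.0985. The count of members whose AAV8-Nfkbiz arrays all read higher was 5, and ran from 3 (median centring) to 8 (without AAV8-Nfkbiz array 3). Genes past the threshold, 30 in all, numbered 0 without the intensity trend (1350 at an unadjusted p below 0.05), 62 with array weights, 18 when a gene's probe sets were averaged, 13 when its most variable one was taken, and 9 to 21 without single arrays. Probe sets past it, 19 in all, numbered 0 without the trend, 77 with array weights, 46 with the filter at the lowest 60% and 35 with log2(intensity + 32), and 8 to 33 without single arrays. The cause was not tested.

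The family's median of 0.21 ran from 0.19 to 0.30 without single arrays. It was 0.15 without the filter and 0.088 with the filter at the lowest 60%, which leaves out dimmer members. The clade A median of 0.33 was 0.054 without the filter, which adds dim genes, and 0.14 (without the first AAV8-luciferase array) to 0.38 without single arrays. The clade B median of 0.30 was 0.40 without the filter and 0.21 with probe sets averaged, and ran from 0.19 (without the third AAV8-luciferase array) to 0.62 (without the second AAV8-Nfkbiz array).

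Signs turned for differences near 0. Quantile and loess normalization gave -0.0099 and -0.074 for Serpina1b, -0.0051 and -0.088 for Serpina1c, and -0.030 and -0.0078 for Serpinf1. Serpinb8 was -0.038 with probe sets averaged and -0.15 with the most variable one, which gave 0.013 for Serpinh1. The dimmer probe set of Serpina1b was 0.012 after median centring, and that of Serpinh1 was -0.084 with array weights. Without single arrays the ranges that cross 0 were -0.059 to 0.15 (Serpina1b), -0.012 to 0.15 (Serpina1c), -0.13 to 0.067 (Serpina3n), -0.0055 to 0.22 (Serpinb8), -0.050 to 0.17 (Serpinf1), -0.58 to 0.49 (Serpini1), -0.085 to 0.048 (dimmer set of Serpina1b), -0.46 to 0.22 (other set of Serpinb8) and -0.24 to 0.33 (dimmer set of Serpinh1).

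With the replicate number as a block, 27 genes and 28 probe sets passed, 0 of them serpins outside coagulation. Same-numbered arrays did not deviate together (r = -0.06, 0.07 and -0.03 across genes, which are not independent replicates). Unlike-numbered arrays gave r from -0.12 to 0.15. These values were centred on group means of few arrays, so they cannot decide whether the numbers pair the samples, which the labels do not state.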

Other observations

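Serpin genes below the intensity filter were dim and uneven. The 22 probe sets of these 17 genes read between 0.626 and 98.6 on all 6 arrays. Without the filter, some of them had larger differences than any tested member. The pair of Serpinb12 probe sets had differences of opposite sign (2.09 ± 0.95 and -2.28 ± 0.77 SE). One probe set read 22.8, 31.8 and 20.9 in AAV8-Nfkbiz livers and 19.9, 2.62 and 3.78 in AAV8-luciferase livers, and the other read 6.37, 28.2 and 8.72 in AAV8-Nfkbiz livers and 53.5, 54.3 and 61.6 in AAV8-luciferase livers. Serpinb6c read 52.9, 60.9 and 46.6 in AAV8-Nfkbiz livers and 31.3, 32.3 and 39.0 in AAV8-luciferase livers. Serpina1f read 8.96, 5.98 and 7.5 in AAV8-Nfkbiz livers and 16.4, 25.5 and 62.2 in AAV8-luciferase livers. In the fit without a filter, adjusted over 45037 probe sets, the limma adjusted p was 0.573 and 0.437 for the Serpinb12 probe sets, 0.784 for Serpinb6c and 0.532 for Serpina1f. These genes were named after their values were seen.

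The probe set annotated to Serpinb9e, Serpinb9f, Serpinb9g and Serpinb9h together read 84.6, 64.7 and 37.0 in AAV8-Nfkbiz livers and 32.9, 24.3 and 85.1 in AAV8-luciferase livers, and the groups overlapped (log2 difference 0.52 ± 0.61 SE, limma adjusted p = 0.794 over the probe sets).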
